A study of Oryctolagus cuniculus with 4 samples.

Results

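CIDEA, AQP8, PTGER3, SNCG and ALDOC are 5 of the 21139 genes counted in Visium sections of the rabbit supraspinatus, a muscle of the rotator cuff. They were chosen by name under the label of adipocyte (fat cell) genes. They were selected on their high counts in the section from 16 weeks after tenotomy, where the tendon had been cut. Their rise in that section was therefore what picked them and is given below as a description. In Visium, a tissue section lies on a grid of barcoded spots, each of which can cover parts of several cells, and a UMI (unique molecular identifier) count is the number of captured RNA molecules.

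The 4 sections, 1 per condition, came from skeletally mature female New Zealand White rabbits. The first was healthy muscle that had been recently harvested and frozen (called fresh), and the second healthy muscle stored frozen for 6 years. The other 2 were muscle stored for 6 years that had been harvested 2 weeks and 16 weeks after tenotomy. Where 4 values follow each other below, they stand in this order of fresh healthy, stored healthy, 2-week and 16-week section. All were snap-frozen, and all came from the posterior distal muscle belly away from fascia and tendon. The labels give the stored healthy and the 16-week section the same animal number with opposite side letters. The fresh healthy and the 2-week section each have a different animal number. With 1 section per condition there was no replicate check, so no test between conditions was made, and each 95% interval covers counting error only.

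Fat that appears within and between muscle fibers after a tendon tear is made up of adipocytes, cells that hold their triglyceride in a lipid droplet. CIDEA is a lipid droplet protein that is best known from brown and beige adipocytes, and AQP8 is a water channel of the aquaporin family. PTGER3 is the EP3 receptor for prostaglandin E2, which restrains lipolysis in adipocytes. SNCG is gamma-synuclein, known from adipocytes and from peripheral neurons, and ALDOC is an isoform of the glycolytic enzyme aldolase that is best known from brain. MYH11 and ACTA2, the smooth muscle forms of myosin heavy chain and actin, were followed beside them as genes of vessel walls.

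The sections held 1950, 2440, 854 and 1726 spots with totals between 4079313 and 12536450 UMIs. The 16-week section was the shallowest per spot, with a median of 2090 UMIs, and the stored healthy section the deepest, with 5195. Mitochondrial genes took 49.3% and 49.2% of the UMIs in the fresh and the stored healthy section, and 33.8% and 34.6% at 2 and 16 weeks. The sections shared between 602 and 1603 spot barcodes in pairs, and 512 in all 4, because barcodes name positions on the slide.

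SNCG was the most abundant of the 5 genes in every section. It had 216, 190, 143 and 4636 UMIs. Per 10000 UMIs of the section this was 0.308 (95% exact Poisson interval 0.268 to 0.352), 0.152 (0.131 to 0.175), 0.351 (0.295 to 0.413) and 9.77 (9.49 to 10.1). The 16-week interval thus lay far above the others, and the 2-week interval overlapped that of the fresh healthy section but not that of the stored one.

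ALDOC came second and had the same order at its upper end. It had 53, 114, 99 and 2694 UMIs, or 0.0755, 0.0909, 0.243 and 5.68 per 10000. The intervals of both healthy sections overlapped (0.0566 to 0.0988 and 0.0750 to 0.109), and those at 2 weeks (0.197 to 0.295) and 16 weeks (5.47 to 5.90) lay above them.

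The other 3 genes were close to the limit of detection in healthy muscle. CIDEA had 15, 11, 27 and 343 UMIs, which was 0.0214, 0.00877, 0.0662 and 0.723 per 10000. PTGER3 had 15, 9, 18 and 455 UMIs, which was 0.0214, 0.00718, 0.0441 and 0.959 per 10000. AQP8 had 7, 0, 35 and 366 UMIs, the last of which was 0.772 per 10000. The 0 among 12536450 UMIs of stored healthy muscle allowed up to 0.00239 AQP8 UMIs per 10000 (3 counts), so a level like that of the fresh section (0.00997) would have been seen.

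In the 16-week section the order was SNCG, ALDOC, PTGER3, AQP8 and CIDEA. The intervals of AQP8 (0.695 to 0.855) and CIDEA (0.649 to 0.804) overlapped there, while that of PTGER3 (0.873 to 1.05) lay just above both. This order is one of captured UMIs, and differences between genes in capture were not tested.

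**Figure D1:**
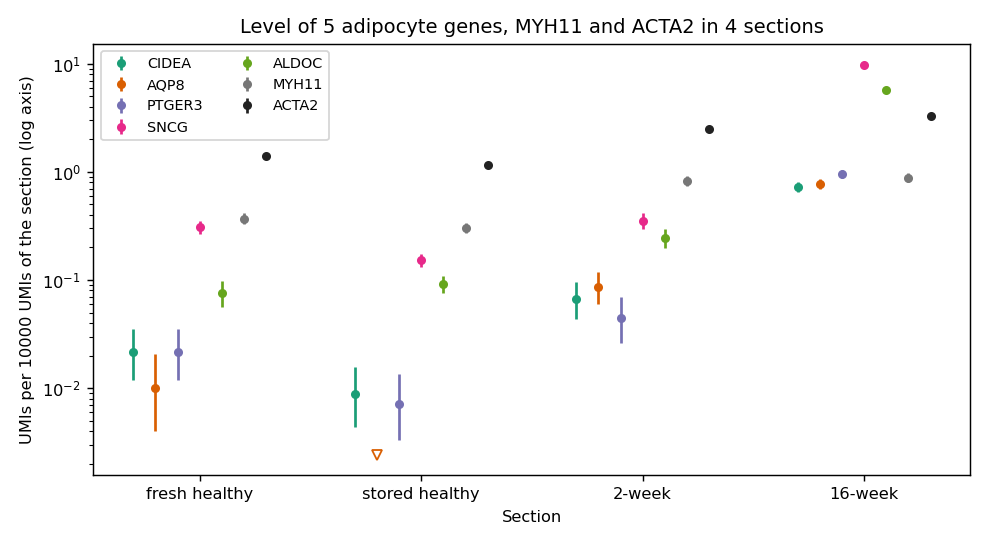
UMIs of each gene per 10000 UMIs of the section, on a log axis, in the 4 sections. Bars are 95% exact Poisson intervals, and the open triangle is the level of 3 counts for AQP8, which had 0 UMIs in the stored healthy section. The 5 adipocyte genes stand far higher at 16 weeks than elsewhere (SNCG 9.77 against at most 0.351), and MYH11 and ACTA2 change much less.

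Between the 16-week and the stored healthy section, SNCG was 64.3-fold higher (95% interval 55.8 to 75.0) and ALDOC 62.2-fold higher (51.8 to 76.0). CIDEA was 78.9-fold (45.5 to 167) and PTGER3 127-fold higher (69.8 to 294), and AQP8 was at least 322-fold higher with the healthy section set at 3 counts. All 5 genes were thus over 2-fold higher, in a comparison in which 46.9% of the 6025 genes with at least 20 UMIs were 2-fold or more higher and the median gene stood at a log2 ratio of 0.93. They held ranks 1 (AQP8), 12 (PTGER3), 18 (CIDEA), 21 (SNCG) and 24 (ALDOC) among those genes, which describes how they were picked. Ratios here have 0.5 added to each count.

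Against the same background, MYH11 was 2.91-fold (2.52 to 3.35) and ACTA2 2.79-fold higher at 16 weeks than in stored healthy muscle. Their log2 ratios of 1.54 and 1.48 lay within 1 of the median gene, whereas those of the 5 genes lay between 5.96 (ALDOC) and 8.33 (AQP8, a bound). In bulk sums of a section, more cells of a type and more RNA per cell cannot be told apart.

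At 2 weeks the 5 genes were above stored healthy muscle, by much less than at 16 weeks. AQP8 was at least 35.9-fold higher, CIDEA 7.35-fold (3.62 to 16.9), PTGER3 5.98-fold (2.62 to 15.5), ALDOC 2.67-fold (2.02 to 3.52) and SNCG 2.31-fold (1.85 to 2.89). The background was 27.6% of 5686 genes at 2-fold or more, with a median log2 ratio of 0.63. MYH11 (2.69-fold) and ACTA2 (2.15-fold) moved about as much as SNCG and ALDOC did. Of 8 fibroblast genes 6 were 2-fold or more higher at 2 weeks, with a median log2 ratio of 1.83 (COL1A1 5.84-fold), above those of SNCG (1.21) and ALDOC (1.42), and their part in the result was not tested. At 16 weeks all 5 were over 2-fold higher than at 2 weeks, where 18.1% of 5534 genes were 2-fold or more higher, by 27.8-fold (SNCG), 23.3-fold (ALDOC), 21.2-fold (PTGER3), 10.7-fold (CIDEA) and 8.88-fold (AQP8). MYH11 was at 1.08-fold (0.934 to 1.25) between these 2 sections. Against the fresh healthy section, the 2-week levels of CIDEA, AQP8 and ALDOC lay above with intervals apart. Those of SNCG and PTGER3 overlapped (PTGER3 0.0262 to 0.0697 per 10000 at 2 weeks, 0.0120 to 0.0353 in fresh muscle). The 2-week section came from a different animal number than the sections compared with it, so time and the animal cannot be told apart.

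The healthy sections, which differ in storage and in the animal, differed less. SNCG was 2.03-fold higher in the fresh one (1.66 to 2.48), CIDEA 2.41-fold (1.05 to 5.86) and PTGER3 2.91-fold (1.22 to 7.72), while ALDOC had a ratio of 0.835 (0.588 to 1.16) that counting error could give. AQP8, with 7 UMIs against 0, was at least 4.17-fold higher with the stored section set at 3 counts. Of the 4 genes with 20 UMIs here, 3 were 2-fold or more higher, against 11.0% of 5756 genes. A fresh healthy spot with 24 SNCG UMIs, 11.1% of all in that section, also held 10 of MYH11 and 23 of ACTA2. Storage and the animal cannot be told apart here.

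Relatives of the 5 genes did not share their size of change between the 16-week and the stored healthy section. ALDOA, the aldolase of muscle, went from 149533 UMIs in stored healthy muscle to 33385 at 16 weeks, a log2 ratio of -0.76 (-0.78 to -0.74). CIDEB had 0 UMIs in each of the 4 sections. The prostaglandin receptors PTGER2 and PTGER4 had log2 ratios of 0.71 (0.17 to 1.23) and 1.56 (1.12 to 2.01). The aquaporins AQP3 and AQP4, both known from muscle fibers or their surroundings, were at 0.29 and 0.02. Of 12 relatives with a feature, 9 had 20 UMIs, 4 of them were 2-fold or more higher, and their median log2 ratio was 0.81, close to the 0.93 of all genes.

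A list of 28 further adipocyte genes was set beside the label. The list was chosen with earlier results of these data known, so it is not an independent check. Of these, 13 have a feature of that name and 8 had 20 UMIs, of which 6 were 2-fold or more higher at 16 weeks than in stored healthy muscle, with a median log2 ratio of 4.18, where 46.9% of all genes were 2-fold or more higher. The adipocyte transcription factors CEBPA and PPARG had 98, 163, 189 and 1348 UMIs (CEBPA) and 16, 36, 49 and 329 UMIs (PPARG). G0S2, a lipolysis inhibitor of the same list that muscle also expresses, was lower at 16 weeks than in stored healthy muscle, with 83 against 349 UMIs (log2 ratio -0.66, -1.03 to -0.32). ADIPOQ, the hormone adiponectin and the most specific adipocyte gene of the list, was sparse with 2, 13, 2 and 43 UMIs. LEP, the hormone leptin, and UCP1, the uncoupling protein of brown fat, were at 0 in all 4 sections, although CIDEA is shared with brown fat.

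Genes of lipid handling outside the 5 are to be read against the 46.9% of all genes that were 2-fold or more higher in this comparison and their median log2 ratio of 0.93. Their lists share genes with the adipocyte list above and are not separate from it. CEBPA and PPARG are among the regulators, ELOVL6 and GPAM among the synthesis genes and G0S2 in the lipolysis list. At 16 weeks against stored healthy muscle, 4 of 6 genes of lipid synthesis with 20 UMIs were 2-fold or more higher (median log2 1.89), among them ACLY at 1.68, and 5 of 6 regulators (median 3.24), among them NR1H3 at 3.78. Of 7 genes of lipid and sugar uptake, 3 were higher and 1 lower (median 0.36). LPL, which frees fatty acids from lipoproteins, was at 2.09 and FABP3, the fatty acid binding protein of muscle, at -1.24. In the droplet list 1 of 3 was higher (median 0.94) and in the lipolysis list 1 of 3 (median 0.44), shares that, like that of the uptake list, lay below the one over all genes.

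The share of spots with a UMI was also highest at 16 weeks for each of the 5 genes. SNCG was found in 114, 130, 95 and 1289 spots, or 5.85% (95% exact binomial interval 4.85 to 6.98), 5.33%, 11.1% and 74.7% (72.6 to 76.7). ALDOC was found in 1.79%, 3.85%, 7.61% and 62.5% of spots. CIDEA (15.9%), AQP8 (15.4%) and PTGER3 (19.8%) each reached fewer of the 16-week spots, and none of them passed 2.81% in another section. AQP8 was in 0 of 2440 stored healthy spots, which allows a share of up to 0.123%.

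Thinning each spot to 1000 UMIs, which left out 266, 93, 53 and 352 shallower spots, was done in 20 random draws, and values are their median with the lowest and the highest. SNCG was then in 56.4% (54.3 to 58.7) and ALDOC in 44.0% (41.6 to 45.9) of the 16-week spots. In the other 3 sections SNCG was in 2.11% (1.72 to 2.67), 1.62% (1.32 to 1.96) and 3.68% (2.62 to 4.74) and ALDOC in 0.772% (0.534 to 1.07), 0.916% (0.597 to 1.19) and 2.50% (2.00 to 3.50). Both genes thus stood higher at 16 weeks than elsewhere in every draw, which describes how they were picked. The ranges of the healthy sections overlapped. The 3 sparse genes stood at 9.28% (CIDEA, 8.01 to 10.3), 9.32% (AQP8, 8.30 to 9.90) and 11.4% (PTGER3, 10.6 to 12.6) at 16 weeks, and in 0 to 12 spots each elsewhere.

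Where the genes were found, they mostly had 1 UMI. Of the spots with CIDEA at 16 weeks, 80.4% had 1 UMI and none more than 4, and AQP8 reached 6 in a spot. SNCG differed from this at 16 weeks, with 653 spots at 3 or more UMIs and a maximum of 25, and ALDOC had 380 such spots and a maximum of 15. In the 2-week section 12 spots had 3 or more SNCG UMIs.

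Counting how many of the 5 genes a spot held, 230 of the 1726 spots at 16 weeks (13.3%) had none, 557 (32.3%) had 2 and 26 (1.51%) had all 5. At 2 weeks 694 of 854 spots (81.3%) had none and 3 had all 5. In fresh and stored healthy muscle 92.2% and 91.0% had none, 9 and 1 spots had 3 or more, and no spot had all 5.

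**Figure D2:**
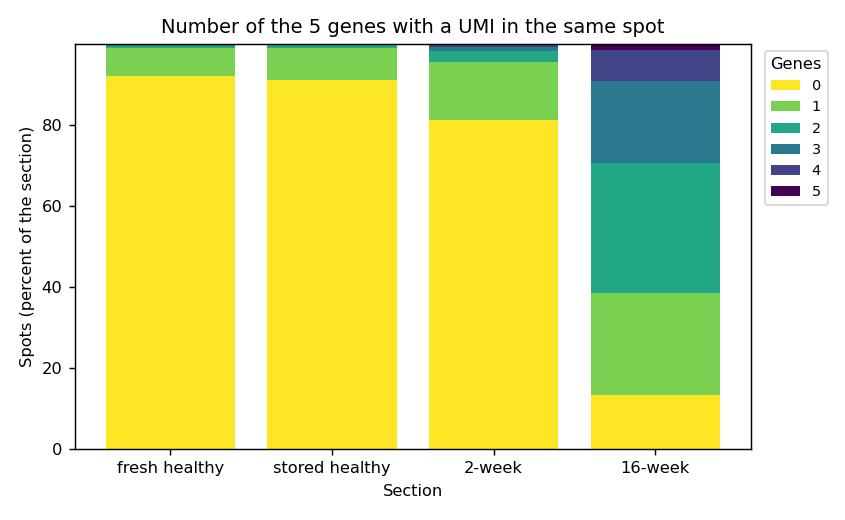
Percent of the spots of each section that held a UMI of 0 to 5 of the genes CIDEA, AQP8, PTGER3, SNCG and ALDOC. At 16 weeks 13.3% of spots held none of them, against 81.3% at 2 weeks and over 90% in both healthy sections.

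Whether the genes lay in the same spots was asked beyond what depth alone would give. The number of spots expected with both genes was computed by giving each gene 1 rate per UMI in all spots of a section, so that deep spots have a higher chance of both. At 2 weeks every pair of the 5 genes exceeded this number, with ratios of observed to expected spots between 2.19 and 11.1 (median 4.28) and all 10 intervals above 1. CIDEA and AQP8 shared 9 of their 24 and 22 spots where 0.808 were expected, and SNCG and ALDOC shared 20 spots against 9.15. The 10 pairs are not separate results, since 3 spots with all 5 genes enter each of them and 3 more held 4 genes. Most spots with any of the 5 genes held 1 of them all the same (122 spots, and 24 with 2). With the expected number taken within 10 bins of spots ranked by depth, the ratios lay between 2.64 and 13.2, with all 10 intervals above 1. With spots thinned to 1000 UMIs the call did not hold, since 0 to 7 of the 10 intervals lay above 1 over 20 draws. The median ratio lay between 0 and 17.7 in these draws, with a middle value of 7.14. They left CIDEA in 2 to 10 spots and PTGER3 in 2 to 9, too few to decide the question.

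The healthy sections had few spots to share. In the fresh one the median ratio over 10 pairs was 6.67 and 7 intervals lay above 1, although most pairs rested on 1 to 8 spots. PTGER3 and ALDOC, for example, shared 5 spots against 0.314 expected, and SNCG and ALDOC 13 against 2.73 (ratio 4.76, 2.53 to 8.13). In the stored healthy section AQP8 gave no pair, and of the 6 others only SNCG with ALDOC had an interval above 1, with 19 spots against 5.75 (ratio 3.31, 1.99 to 5.16).

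At 16 weeks the same calculation gave ratios between 0.989 and 1.13 for the 10 pairs, with no interval above or below 1. SNCG and ALDOC shared 914 spots where 908 were expected. This result rested on the model of depth. When the expected number was taken within 10 bins of spots ranked by depth, the ratios lay between 1.07 and 1.46 with 8 of 10 intervals above 1, and over 20 draws of spots thinned to 1000 UMIs the median ratio lay between 1.37 and 1.53, with 8 to 10 intervals above 1. The 16-week spots with 4578 UMIs or more had 3.34 SNCG UMIs per 10000, against 23.1 in those with 991 to 1644, so 1 rate per UMI did not describe this section. In the shallowest spots of the other sections (up to 1565, 3787 and 3075 UMIs) SNCG had 0.788, 0.448 and 1.12 per 10000. In their deepest spots (from 5411, 6558 and 6129 UMIs) it had 0.198, 0.132 and 0.232. The same limit therefore applies to the ratios from each spot's UMIs in those sections.

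MYH11 and ACTA2 show how the 5 genes lay to vessels. Pairs of 1 of the 5 genes with MYH11 or ACTA2 had median ratios of 2.81, 2.00, 1.30 and 0.924. For comparison, MYH11 and ACTA2 with each other had ratios of 2.53, 2.02, 1.33 (1.06 to 1.64) and 1.22. Of the pairs of the 5 genes with MYH11, that of SNCG rested on the most spots in each section. Its ratio was above that of MYH11 with ACTA2 in both healthy sections, close to it at 2 weeks and below it at 16 weeks. The intervals of these pairs were apart only in the stored section, and within 10 bins of depth also at 16 weeks. SNCG shared 39 fresh healthy spots with MYH11 where 10.0 were expected (3.89, 2.77 to 5.32). In stored healthy muscle it shared 43 spots where 12.3 were expected (3.51, 2.54 to 4.73). At 2 weeks it shared 26 against 19.8 (1.32, 0.860 to 1.93) and at 16 weeks 176 against 179 (0.986, 0.845 to 1.14). Both depended on the model of depth. The ratio was 1.60 (1.05 to 2.34) at 2 weeks and 1.08 (0.928 to 1.25) at 16 weeks within 10 bins of depth, and over 20 draws thinned to 1000 UMIs it lay between 1.43 and 4.69 at 2 weeks, with the interval above 1 in 5 draws, and between 1.28 and 1.54 at 16 weeks, with the interval above 1 in 19.

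ALDOC also lay with MYH11 in healthy muscle, with 9 spots against 3.09 in the fresh (2.91, 1.33 to 5.53) and 19 against 8.87 in the stored section (2.14, 1.29 to 3.35). CIDEA and PTGER3 shared at most 4 spots with MYH11 in either healthy section, and their intervals included 1, although that of PTGER3 in the fresh section lay above 1 within 10 bins of depth (4.02, 1.10 to 10.3). With ACTA2, CIDEA shared 9 fresh healthy spots where 3.32 were expected (2.71, 1.24 to 5.15). At 2 weeks CIDEA shared 5 spots with MYH11 where 5.07 were expected, in the section where it shared 9 with AQP8. With ACTA2, CIDEA shared 18 spots at 2 weeks where 11.2 were expected (1.61, 0.954 to 2.54). That ratio was 1.87 (1.11 to 2.95) within 10 bins of depth. Within the 10 bins of depth the 16-week pairs of the 5 genes with MYH11 or ACTA2 had ratios of 1.03 to 1.34, a range that overlaps that of the pairs among the 5. Of these, PTGER3 with MYH11 (1.34, 1.02 to 1.72) and AQP8 with ACTA2 (1.29, 1.08 to 1.54) had intervals above 1.

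**Figure D3:**
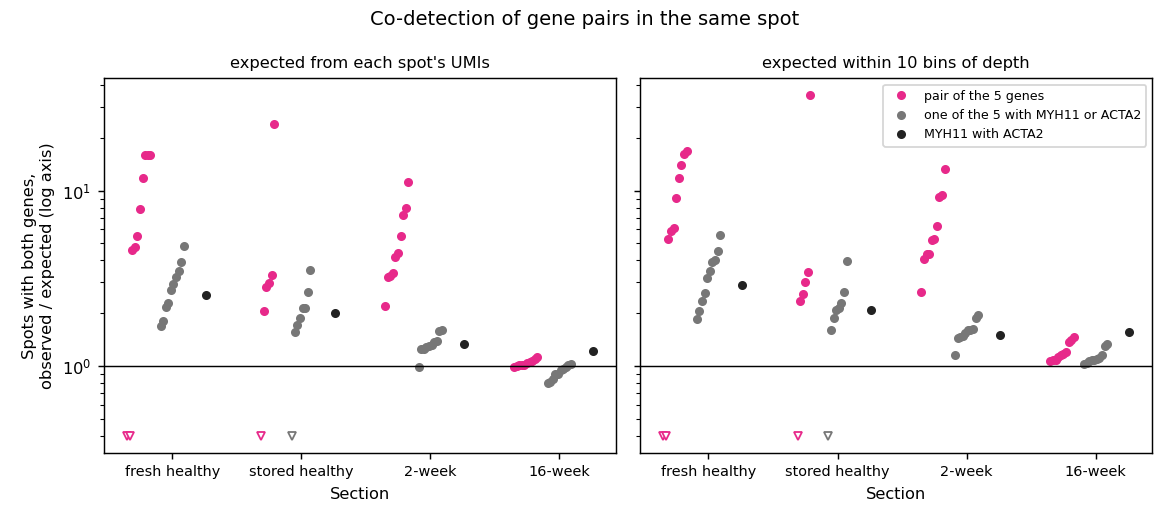
Ratio of observed to expected spots with both genes, on a log axis, for each gene pair in the 4 sections, with the expected number from each spot's UMIs (left) or within 10 bins of spots by depth (right). Open triangles at the bottom are pairs with no shared spot. Pairs among the 5 genes reach 11.1 (left) or 13.2 (right) at 2 weeks and stay between 0.989 and 1.13 (left) or 1.07 and 1.46 (right) at 16 weeks.

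To tell fat from vessels, spots were split by their UMIs of the further adipocyte list (at least 2) and of MYH11 with ACTA2 (at least 2). The 16-week section held 363 spots with adipocyte list genes only, 178 with vessel genes only, 140 with both and 1045 with neither. Of the fat-only kind there were 90, 78 and 50 spots in the other sections, and of the vessel-only kind 134, 270 and 166. The adipocyte list did not weigh the same genes everywhere. In its spots CEBPA made up 70.0% of the list's UMIs at 16 weeks and 54.2% at 2 weeks, while in healthy muscle G0S2 made up 71.9% (fresh) and 41.7% (stored).

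At 16 weeks all 5 genes were higher in fat-only than in vessel-only spots. CIDEA had 1.06 against 0.530 UMIs per 10000 (1.96-fold, 1.31 to 3.13), AQP8 1.07 against 0.587 (1.81-fold) and PTGER3 1.58 against 1.04 (1.51-fold). ALDOC had 8.30 against 5.47 (1.51-fold) and SNCG 14.1 against 9.75 (1.44-fold, 1.31 to 1.60). None of the 5 reached 2-fold, a mark that 2.76% of 3229 genes passed upward in this comparison, and without CEBPA in the list AQP8 turned to a log2 ratio of -0.37 (-1.10 to 0.26).

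Measured against 16-week spots with neither, fat-only spots were 1.90-fold (CIDEA) to 2.59-fold (PTGER3) higher. Vessel-only spots were at 1.45-fold for SNCG (1.31 to 1.60), 1.72-fold for PTGER3 (1.23 to 2.33) and 1.35-fold for ALDOC, while CIDEA (0.969, 0.614 to 1.44) and AQP8 (1.18, 0.763 to 1.73) had intervals that included 1. Spots with both kinds of genes were the highest for SNCG (18.6 per 10000), ALDOC (9.81), AQP8 (1.98) and CIDEA (1.21). AQP8 was 1.85-fold higher in them than in fat-only spots (1.37 to 2.46), and PTGER3 was at 0.965 (0.707 to 1.29). For CIDEA the interval of this ratio included 1.

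In the healthy sections SNCG was lower in fat-only than in vessel-only spots under the main split. In the fresh section it had 62 UMIs in vessel-only spots (0.969 per 10000) and 9 in fat-only spots (0.183), a log2 ratio of -2.34 (-3.60 to -1.39) where 5.45% of 1946 genes were 2-fold or more lower and 0.925% 2-fold or more higher. In the stored section it had 78 (0.478) and 10 (0.208), a log2 ratio of -1.14 (-2.31 to -0.24) where 7.50% of 2760 genes were lower and 2.25% higher by this mark. Against spots with neither, vessel-only spots were 8.09-fold (5.64 to 11.6, fresh) and 6.15-fold (4.45 to 8.51, stored) higher for SNCG. The 24 fresh spots with both kinds of genes held 76 of the 216 SNCG UMIs, or 5.69 per 10000. The fat-only spots held few UMIs of ADIPOQ and PPARG, with 0 and 1 in the fresh section and 5 and 6 in the stored one. The lower SNCG level in fat-only than in vessel-only spots was not kept when G0S2 and GPAM were left out of the list. The log2 ratio was then 0.39 (fresh, -1.06 to 1.41) and 0.17 (stored, -1.17 to 1.14). It turned to 1.45 (0.26 to 2.37) in the fresh section when spots were split by list UMIs per 10000. The stored section also turned upward under that split, as given below, and turned to 0.14 (-0.72 to 0.87) with a broader list of vessel genes.

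ALDOC had too few UMIs to tell whether its level differed between fat-only and vessel-only spots in healthy muscle. It had 8 and 9 UMIs in them in the fresh section (1.17-fold, 0.389 to 3.38) and 5 and 29 in the stored one (0.634-fold, 0.177 to 1.53). CIDEA, AQP8 and PTGER3 had at most 4 UMIs in either group there, too few to place them.

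At 2 weeks AQP8 had the largest ratio on the fat side, with 10 UMIs in 50 fat-only spots and 3 in 166 vessel-only spots (8.27-fold, 2.37 to 52.0). The 10 UMIs lay in 6 spots, and the interval overlapped those of the other genes. ALDOC had 15 and 16 UMIs (2.59-fold, 1.19 to 5.58) and SNCG 25 and 42 (1.65-fold, 0.959 to 2.76). CIDEA (2.76-fold) and PTGER3 (3.37-fold) had 4 or 5 UMIs per group and intervals that included 1. Of the 2486 genes with 20 UMIs in these spots, 2.37% were 2-fold or more higher in the fat-only ones. Only ALDOC and SNCG of the 5 genes had 20 UMIs there, and ALDOC was among the higher ones. CIDEA, AQP8 and PTGER3 had too few UMIs to be counted. The 31 spots with both kinds of genes held 39 of 99 ALDOC UMIs and 14 of 35 AQP8 UMIs.

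**Figure D4:**
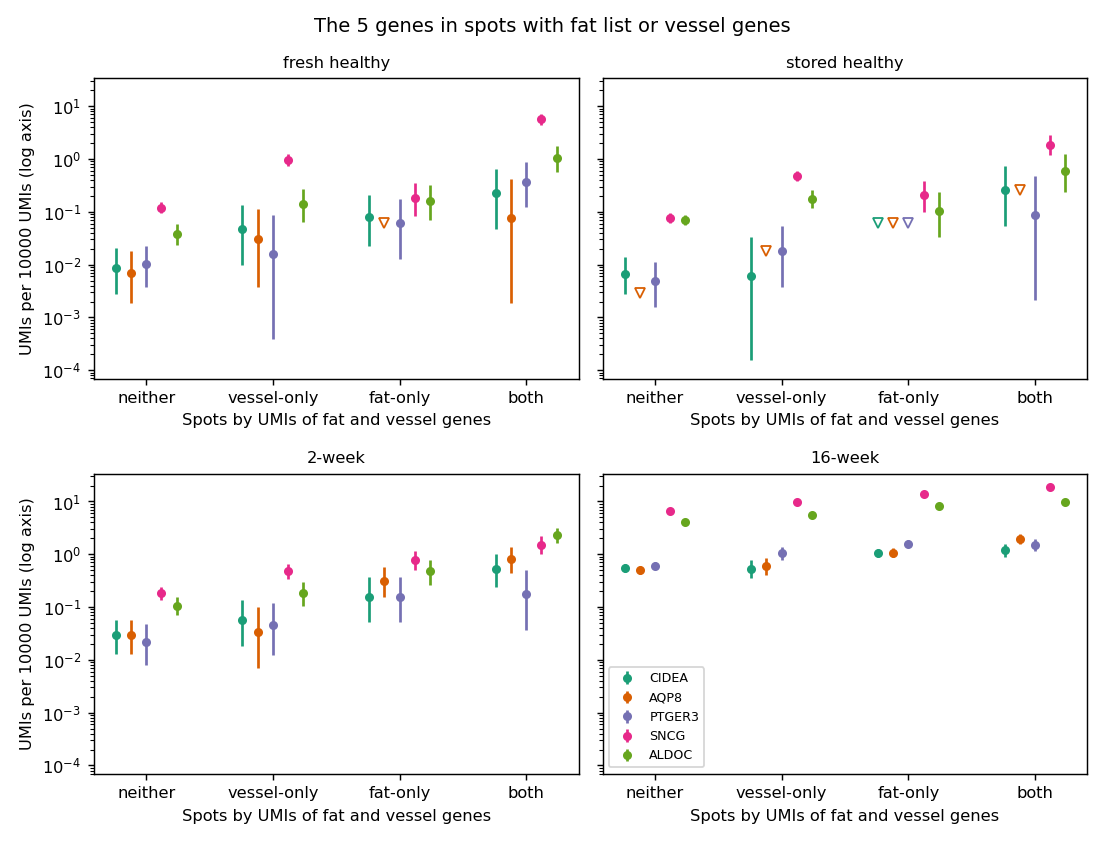
UMIs per 10000 of each gene in spots with at least 2 UMIs of the adipocyte list, of MYH11 with ACTA2, of both or of neither, on log axes, 1 panel per section. Bars are 95% exact Poisson intervals and open triangles mark the level of 3 counts where a gene had none. SNCG is higher in vessel-only than in fat-only spots of the healthy sections (0.969 against 0.183 in the fresh one), a direction that turned without G0S2 and GPAM in the list, and lower at 16 weeks (9.75 against 14.1).

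How the genes lay to muscle was followed by ranking the spots by their share of UMIs from the 5 genes of the muscle list that have a feature, MYH1, MYH4, MYH7, MYL1 and MYL2 of the sarcomere, and cutting them into 4 groups of equal size. At 16 weeks MYL2 (85058 UMIs) and MYH7 (75719), the myosin of slow fibers, outweighed MYH1 (36093), MYL1 (18817) and MYH4 (42). A low share can therefore also mark spots rich in fast fibers, and fiber type was not separated from muscle content. From the muscle-poorest to the muscle-richest group at 16 weeks, SNCG fell from 25.2 to 3.79 UMIs per 10000, ALDOC from 13.4 to 2.63, PTGER3 from 2.32 to 0.448, AQP8 from 1.90 to 0.336 and CIDEA from 1.62 to 0.365. All 5 were thus 2-fold or more higher in the muscle-poorest group, between 4.41-fold (CIDEA) and 6.65-fold (SNCG), where 43.5% of 3711 genes were. MYH11 (12.5-fold) and ACTA2 (9.59-fold) differed more.

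The genes were not absent from muscle-rich spots at 16 weeks. In the muscle-richest group, SNCG was in 66.1% and ALDOC in 52.7% of 431 spots, with medians of 3917 UMIs per spot there and 1386 in the muscle-poorest group, where SNCG was in 85.2%. A spread of RNA from neighboring tissue into these spots was not tested. The numbers of SNCG UMIs for each UMI of AQP8 were 13.3 (11.1 to 16.0) in the muscle-poorest and 11.3 (8.61 to 15.1) in the muscle-richest group. For CIDEA this number went from 15.6 (12.9 to 19.1) to 10.4, and for MYH11 it went from 7.88 to 15.0.

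**Figure D5:**
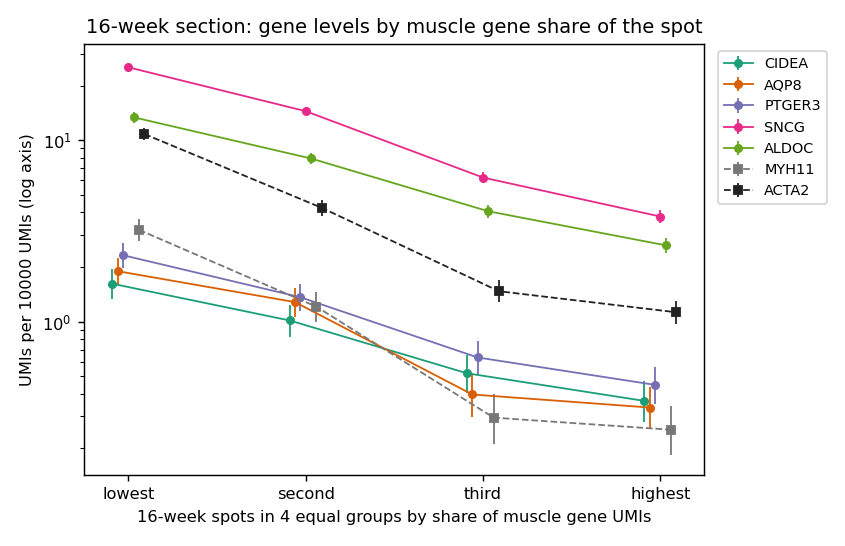
UMIs per 10000 of the 5 genes (solid lines) and of MYH11 and ACTA2 (dashed lines) in 4 equal groups of the 16-week spots ordered by their share of muscle gene UMIs, on a log axis with 95% exact Poisson intervals. All 7 genes fall toward muscle-rich spots, SNCG from 25.2 to 3.79 and MYH11 from 3.20 to 0.253.

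At 2 weeks the fall toward muscle was seen with fewer UMIs, with 78 and 22 SNCG UMIs in the muscle-poorest and muscle-richest group (3.82-fold, 2.39 to 6.54) and 51 and 11 of ALDOC (4.90-fold). The fresh healthy section had it to a lesser size, with SNCG 1.62-fold (1.13 to 2.37) and ALDOC 2.33-fold (1.12 to 5.55) higher in the muscle-poorest group. The stored healthy section did not, since SNCG had 0.184 UMIs per 10000 in both groups and ALDOC was lower in the muscle-poorest one (0.0712 against 0.134, ratio 0.542, 0.296 to 0.924).

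Lists of other cell types were set beside SNCG as the 10% of spots with the highest share of each list, among spots with at least 500 UMIs. At 16 weeks SNCG was 3.54-fold higher in the top 10% by the adipocyte list than in the other spots, 3.41-fold by the nerve list, 2.74-fold by MYH11 with ACTA2, 2.07-fold by endothelial genes, 1.39-fold by macrophage genes, 1.31-fold by fibroblast genes and 0.318-fold by muscle genes. In the fresh healthy section it was 14.2-fold higher by MYH11 with ACTA2, 7.33-fold by the adipocyte list, 7.09-fold by fibroblast genes and 2.14-fold by the nerve list. In the stored healthy section it was 7.71-fold higher by MYH11 with ACTA2, 5.93-fold by fibroblast genes and 3.69-fold by the adipocyte list. At 2 weeks fibroblast genes (8.17-fold), the nerve list (7.42-fold) and the adipocyte list (7.07-fold) gave SNCG values whose intervals overlapped. The nerve list consisted largely of S100B at 16 weeks (627 UMIs), which adipocytes also express. At 16 weeks CIDEA was 3.39-fold higher in the top 10% by the adipocyte list, 3.26-fold (2.36 to 4.36) by the nerve list and 1.72-fold by vessel genes. It was at 0.822-fold (0.477 to 1.27) by macrophage and 0.745-fold (0.389 to 1.23) by fibroblast genes. AQP8 was higher there by the adipocyte list (4.32-fold), the nerve list (3.12-fold, 2.27 to 4.16), vessel genes (3.01-fold) and endothelial genes (2.89-fold). It was also higher by macrophage genes (2.84-fold, 2.11 to 3.72) and fibroblast genes (2.60-fold, 1.86 to 3.50). PTGER3 was 3.82-fold higher by the adipocyte list, 3.78-fold (2.91 to 4.82) by the nerve list and 2.46-fold by vessel genes. ALDOC was 3.49-fold, 2.91-fold and 2.51-fold higher by these lists.

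The genes most like each of the 5 were named by Pearson's r over spots, among genes in at least 50 spots, as a description, since spots of a section share a library and their depth. At 16 weeks (1726 spots) SNCG was closest to ALDOC (r = 0.53), then to SF3B2, VIM, ANXA1 and LPL (0.50 to 0.46). CIDEA, AQP8 and PTGER3 were each closest to SNCG, at 0.26, 0.24 and 0.27. GSTA5, a glutathione transferase, was among the 5 nearest genes of SNCG in the other 3 sections (0.51, 0.43 and 0.31). In the fresh healthy section SNCG was next closest to ACTA2 (0.40) and MYH11 (0.39). At 2 weeks ALDOC (0.46) and AQP8 (0.41) were near CEBPA.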

How the data were processed

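Space Ranger 1.2.0 and the rabbit genome OryCun2.0 were used by the authors to make the UMI counts, per the labels. The deposited counts of spots under tissue were used without normalization or filter on spots in most of the main results. Exceptions were the thinned values, the top 10% of spots by a list and Pearson's r. The top 10% was taken among spots with at least 500 UMIs. Pearson's r was computed on logs of UMIs scaled to the median spot. The members and the gene lists were chosen with earlier results of these data known. Genes were matched by symbol, and 37 mitochondrial genes stayed in the totals. Named genes were the 5 members, MYH11, ACTA2, their family relatives, list genes and the 5 nearest genes by Pearson's r. Counts were summed over spots and divided by section totals. Intervals at 95% were exact Poisson for counts, Clopper-Pearson for shares and exact conditional binomial for ratios, with Python 3.11.15, numpy 2.4.6 and scipy 1.17.1. Ratios against 0 used 3 counts. UMIs merge reads of a molecule, but molecules of neighboring spots are not independent samples. No doublet caller applies to spots. Interval coverage and co-detection were tested on simulated data. Alternatives changed the scaling, spot filters, thinning, depth model, and list thresholds. Promoter and protein sequences were not used here. Values of some single genes are not reported here.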

Additional observations from a re-analysis of the deposited data

Results flagged for a closer look

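SNCG is given again for its opposite directions between fat-only and vessel-only spots. Its log2 ratio of fat-only to vessel-only spots was -2.34 (fresh) and -1.14 (stored) in healthy muscle, 0.73 at 2 weeks and 0.53 at 16 weeks, so that it was lower in fat-only spots of both healthy sections and higher in those of both tenotomized ones. The difference between healthy and tenotomized muscle was not tested, since each condition had 1 section, and the interval at 2 weeks (-0.06 to 1.46) included 0. The genes that made up the adipocyte list moved with it: G0S2 gave 71.9% (fresh) and 41.7% (stored) of the list's UMIs in healthy fat spots, and 19.8% and 4.41% at 2 and 16 weeks. Under 3 other ways to split the spots of stored healthy muscle, and under 2 for the fresh one, the direction turned, as given below.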

How the results depend on the processing

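No direction of the 5 genes between the 16-week and the stored healthy section turned under any scaling or spot filter tried. They were picked for this rise, and log2 ratios of 5.96 (ALDOC) to 8.33 (AQP8, a bound) left little room to turn. The unturned direction is therefore no support for the rise. Without mitochondrial genes the log2 ratios of AQP8, SNCG and ALDOC were 7.97, 5.64 and 5.59, and scaled by the median gene, which shifts this comparison by 0.72, they were 7.61, 5.29 and 5.24. The share of 16-week spots moved by construction. For CIDEA, AQP8, PTGER3, SNCG and ALDOC it was 8.52%, 9.24%, 10.9%, 55.2% and 43.7% with spots thinned to 1000 UMIs, 6.16%, 5.72%, 6.28%, 42.9% and 29.5% with 500, and 3.13%, 3.77%, 5.10%, 52.0% and 37.6% with at least 2 UMIs of the gene. These thinned values are 1 random draw, and the range over 20 draws of 1000 UMIs, an addition chosen after seeing the data, stands with the shares of spots above.

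The median co-detection ratio of the 10 pairs at 16 weeks was 1.02, but 1.16 within 10 bins of depth and 1.50 after thinning, an alternative chosen after seeing the data. Over 20 draws, chosen after seeing the data, it lay between 1.37 and 1.53 at 16 weeks, but between 0 and 17.7 at 2 weeks with 0 to 7 of 10 intervals above 1, so thinned co-detection at 2 weeks rests on the draw. CIDEA with ACTA2 and ALDOC with ACTA2 at 16 weeks turned from below 1 to 1.03 and 1.04 within bins of depth and to 1.29 and 1.33 after thinning. In that draw, 0 spots were shared by CIDEA with PTGER3 in fresh healthy muscle, and at 2 weeks by PTGER3 with CIDEA, AQP8 or ALDOC.

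The log2 ratio of SNCG in fat-only to vessel-only spots depended most on how spots were split. In the fresh healthy section it was -0.91 with at least 3 UMIs, 1.45 with 10 or more list UMIs per 10000, -4.01 without CEBPA and 0.39 without G0S2 and GPAM. In the stored healthy section these settings gave -2.71, 1.37, -2.74 and 0.17, and a broader vessel list 0.14. At 2 weeks it was -0.33 with at least 1 UMI, 1.84 with at least 3, 1.98 with 10 or more per 10000, 1.60 with the broader vessel list and 1.84 without G0S2 and GPAM. At 16 weeks SNCG and ALDOC stayed above 0 under all settings, at 0.87 and 0.86 with at least 1 UMI, 0.97 and 1.07 with the broader vessel list, 0.36 and 0.28 without CEBPA and 0.71 and 0.81 without G0S2 and GPAM. CIDEA and AQP8 were at 0.33 and 0.16 with 10 or more per 10000, and AQP8 at -0.37 without CEBPA. Lists without these genes were chosen after seeing the data, and the cause of these shifts was not tested. No paired analysis was possible because each condition had 1 section.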
